A study of Mus musculus with 2 samples.

Results

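The genes described here are 35 chemokines and chemokine receptors, 25 ligands and 10 receptors, of the 32285 genes in the count tables. They were chosen by symbol, and each was followed across 8 classes of cells gated by marker genes, with the aim of finding which cells carried each ligand and which carried its receptor. Chemokines are small secreted proteins that draw leukocytes along a concentration gradient, and each acts on one or a few G protein-coupled receptors. CC chemokines mainly act on monocytes, lymphocytes, eosinophils and dendritic cells, while the CXC chemokines that bind Cxcr2 act on neutrophils. In tumors they are known for recruiting myeloid cells and T cells and for placing them near the cells that secrete the ligand.

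The cells came from orthotopic tumors of RM-1, a mouse prostate cancer line, grown in the prostate of C57BL/6 mice with a WT genotype label. One tumor was from a mouse given vehicle (control) and one from a mouse given enzalutamide (ENZ), an androgen receptor inhibitor, with 1 droplet-based 3′ library each. Immune cells had been enriched during sorting, so the number of cells in a class says nothing of its share of the tumor. Each condition had 1 library, and no test between conditions was possible. All intervals below are exact 95% intervals for counting error only, and cells of 1 library are not replicates.

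The control library held 170830346 UMIs (unique molecular identifiers, each counting 1 captured RNA molecule) and the ENZ library 162030149. Of their barcodes, 12253 control and 10271 ENZ barcodes had at least 1000 UMIs and at most 20% mitochondrial UMIs. The gate placed 8406 (68.6%) and 7351 (71.6%) of them in a class. There were 3162 control and 3609 ENZ cancer cells, 72 and 57 fibroblasts, 1529 and 845 macrophages, 1054 and 1265 monocytes, 1322 and 500 neutrophils, 369 and 171 dendritic cells (DC), 439 and 682 T cells, and 459 and 222 NK cells. Median depth ran from 1976 and 2062 UMIs in neutrophils to 24137 and 24552 UMIs in cancer cells. Levels are given as counts per 1000000 (CPM) of all UMIs summed over a class, a scale with no correction for gene length, so that a gene is compared between classes and libraries and not with another gene.

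The labels call the material prostate cancer cells. In the cancer gate Krt8, an epithelial keratin, stood at 516 CPM in control and 565 CPM in ENZ, and Krt18, its partner, at 427 and 406 CPM. Epcam, an epithelial adhesion protein, was low there, at 3.89 and 3.44 CPM, and higher in the T cell gate, at 8.90 and 15.7 CPM. Pbsn, which marks differentiated prostate epithelium, had no UMI in the cancer gate of either library, which allows at most 0.0329 CPM in control and 0.0295 CPM in ENZ. Ptprc, which encodes CD45, was at 11.7 and 8.63 CPM in the cancer gate, against 368 CPM or more in each immune gate. Of the markers fixed for each class, the number highest in their own gate (control, ENZ) was 6 and 5 of 8 for cancer cells, 5 and 5 of 7 for monocytes and 16 and 14 of 19 for DC, and all 8 or 9 of them in the other classes.

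Free RNA was estimated from barcodes with at most 100 UMIs. Its upper share of the UMIs ran from 2.70% (ENZ fibroblasts) to 10.8% (control neutrophils). A level near the one that this share would bring is named as such below.

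Ccl2, which binds Ccr2 and recruits monocytes, was highest in cancer cells in both libraries, at 1503 CPM (1495 to 1511) in control and 1679 CPM (1671 to 1687) in ENZ. Cancer cells held 76.6% and 83.6% of all Ccl2 UMIs among the barcodes that passed. The next class was fibroblasts in control, at 975 CPM, and macrophages in ENZ, at 477 CPM. The ligand of Cx3cr1, the membrane-bound Cx3cl1, was also highest in cancer cells, at 33.4 CPM in control and 31.4 CPM in ENZ, although in control the step to fibroblasts (26.0 CPM) was within counting error (1.29-fold, 0.961 to 1.76).

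Cxcl1, a neutrophil attractant, was shared by cancer cells and fibroblasts. Cancer cells stood at 733 and 789 CPM and fibroblasts at 792 and 762 CPM, and which of them ranked first changed between the libraries by steps of 1.08-fold (1.02 to 1.14) and 1.03-fold (0.965 to 1.11). Since cancer cells were many and deep, they held 74.2% and 80.2% of the Cxcl1 UMIs. They also held the largest share of the UMIs of Cxcl2 (33.6% and 53.3%), Ccl7 (57.1% and 66.2%), Ccl20 (75.8% and 75.3%) Cxcl10 (55.0% and 64.7%), Ccl11 (41.3% and 44.0%) and Cxcl5 (59.6% and 49.0%), genes for which another class had the higher CPM.

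Fibroblasts were the highest class for 6 further ligands in both libraries. Cxcl12, the ligand of Cxcr4, was at 146 CPM in control and 271 CPM in ENZ and at most 0.599 CPM in any other of the 8 classes. Cxcl14 was at 849 and 468 CPM, with macrophages next at 3.91 and 3.65 CPM. Ccl11, an eosinophil attractant, was at 81.5 and 159 CPM, against 2.59 and 2.77 CPM in cancer cells. The other fibroblast ligands were less selective. Ccl7, a ligand of Ccr1 and Ccr2, stood at 235 and 288 CPM beside 149 and 224 CPM in macrophages. Ccl20, the ligand of Ccr6, stood at 54.9 and 27.5 CPM, 2.21-fold (1.79 to 2.71) and 1.72-fold (1.15 to 2.48) above cancer cells. Cxcl5, another ligand of Cxcr2, stood at 19.8 and 90.2 CPM beside 1.12 and 1.44 CPM in cancer cells. With 72 and 57 cells, a fibroblast level could turn on a few cells.

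Macrophages were highest for Ccl12, Ccl8, Cxcl16 and Ccl24 in both libraries. Ccl12, a ligand of Ccr2, was at 257 and 250 CPM, 10.5-fold (8.79 to 12.6) and 15.6-fold (12.8 to 19.2) above monocytes. Ccl8, a ligand of Ccr8, was at 214 and 324 CPM. Cxcl16, the ligand of Cxcr6, was at 224 and 245 CPM, with DC next at 129 and 136 CPM. Ccl6 and Ccl9, ligands of Ccr1, were broad myeloid genes. Ccl6 was highest in control neutrophils (1217 CPM) and in ENZ macrophages (1212 CPM), and Ccl9 was at 355 and 450 CPM in macrophages beside 365 and 340 CPM in monocytes. The control order of those 2 classes for Ccl9 was within counting error (1.03-fold, 0.976 to 1.09).

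Neutrophils were highest for Cxcl2, Cxcl3, Ccl3 and Ccl4 in both libraries. Cxcl2, a neutrophil attractant, was at 8906 CPM in control and 10627 CPM in ENZ, and after each cell was thinned to 1000 UMIs it was seen in 86.1% and 89.4% of neutrophils, against 8.93% and 8.11% of NK cells, which should lack it (93.0% and 94.6% against 30.9% and 31.1% before thinning, at median depths of 1976 and 2062 UMIs in neutrophils and 3979 and 4410 UMIs in NK cells). Ccl3, a ligand of Ccr1, was at 998 and 1024 CPM, and Ccl4, a relative of Ccl3, at 714 and 745 CPM. Cxcl3 was at 1041 and 491 CPM and is taken up again below.

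Cxcl1, Cxcl2 and Cxcl3 lie together on chromosome 5 and bind the same receptor, so the bases before their annotated starts are shown here as the sequences of the neutrophil-attracting group. RefSeq promoters (build GRCm38.p6) were found for 26 of the 35 genes. Each line gives the 250 bases before the start, on the plus strand, 5′ to 3′. The longest run of letters that all 3 windows hold is in capitals, and it has the form of the NF-kB consensus. The windows are chr5:90890995-90891244 for Cxcl1, chr5:90903649-90903898 for Cxcl2 and chr5:90785851-90786100 for Cxcl3.
Cxcl1: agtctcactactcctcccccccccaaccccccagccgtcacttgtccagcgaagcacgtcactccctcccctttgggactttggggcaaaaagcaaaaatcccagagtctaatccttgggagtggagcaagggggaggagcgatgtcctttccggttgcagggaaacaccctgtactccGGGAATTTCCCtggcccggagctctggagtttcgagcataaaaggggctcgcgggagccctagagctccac
Cxcl2: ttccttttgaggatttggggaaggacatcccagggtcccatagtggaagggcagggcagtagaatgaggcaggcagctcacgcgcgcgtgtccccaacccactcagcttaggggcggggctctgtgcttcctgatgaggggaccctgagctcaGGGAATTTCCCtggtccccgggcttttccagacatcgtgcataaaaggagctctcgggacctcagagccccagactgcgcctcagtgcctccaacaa
Cxcl3: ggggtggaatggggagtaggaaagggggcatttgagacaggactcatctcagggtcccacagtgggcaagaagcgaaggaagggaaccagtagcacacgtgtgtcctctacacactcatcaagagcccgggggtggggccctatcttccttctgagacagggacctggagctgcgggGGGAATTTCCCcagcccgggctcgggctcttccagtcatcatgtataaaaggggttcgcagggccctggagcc
This run of 11 bases, GGGAATTTCCC, was searched on both strands and was in 14 of 32851 promoter windows of this length (0.0426%). Of the 26 windows found here it was in these 3, which defined it, and in no other. It ended 60, 86 and 62 bases before the start of Cxcl1, Cxcl2 and Cxcl3. A match is a description of letters and not of binding.

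DC were highest for Ccl22 and Ccl17, the ligands of Ccr4. Ccl22 was at 267 CPM in control and 860 CPM in ENZ, and no other class passed 7.49 CPM. Ccl17 was at 168 and 388 CPM. Within DC, the mature DC gate (79 and 50 cells, marked by Fscn1, Il4i1 and others) held 92.8% and 99.0% of the Ccl22 UMIs and 86.6% and 78.8% of the Ccl17 UMIs. The ligand Cxcl9, which binds Cxcr3, was low in all classes and had no stable order. It was highest in control monocytes, 1.04-fold (0.802 to 1.37) above DC (31.6 CPM), and in ENZ DC at 59.4 CPM. Its companion Cxcl10 was highest in control macrophages (228 CPM) and in ENZ monocytes (189 CPM).

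NK cells were highest for Ccl5 and Xcl1. Ccl5, a ligand of Ccr1, was at 2607 CPM in control and 1476 CPM in ENZ NK cells, with T cells next at 1220 and 1147 CPM. When smaller gates were taken alone, some stood above NK cells. Mature DC did so in both libraries, at 3923 CPM (3751 to 4101) and 3929 CPM (3721 to 4147). CD8 T cells (76 and 138 cells) were below NK cells in control, at 2010 CPM, and above them in ENZ, at 3152 CPM. Xcl1, the ligand of Xcr1, was at 279 and 203 CPM in NK cells and at 76.4 and 35.1 CPM in T cells. In all, 20 of the 25 ligands had the same highest class in both libraries. Those that did not were Ccl6, Ccl9, Cxcl1, Cxcl9 and Cxcl10.

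**Figure D1:**
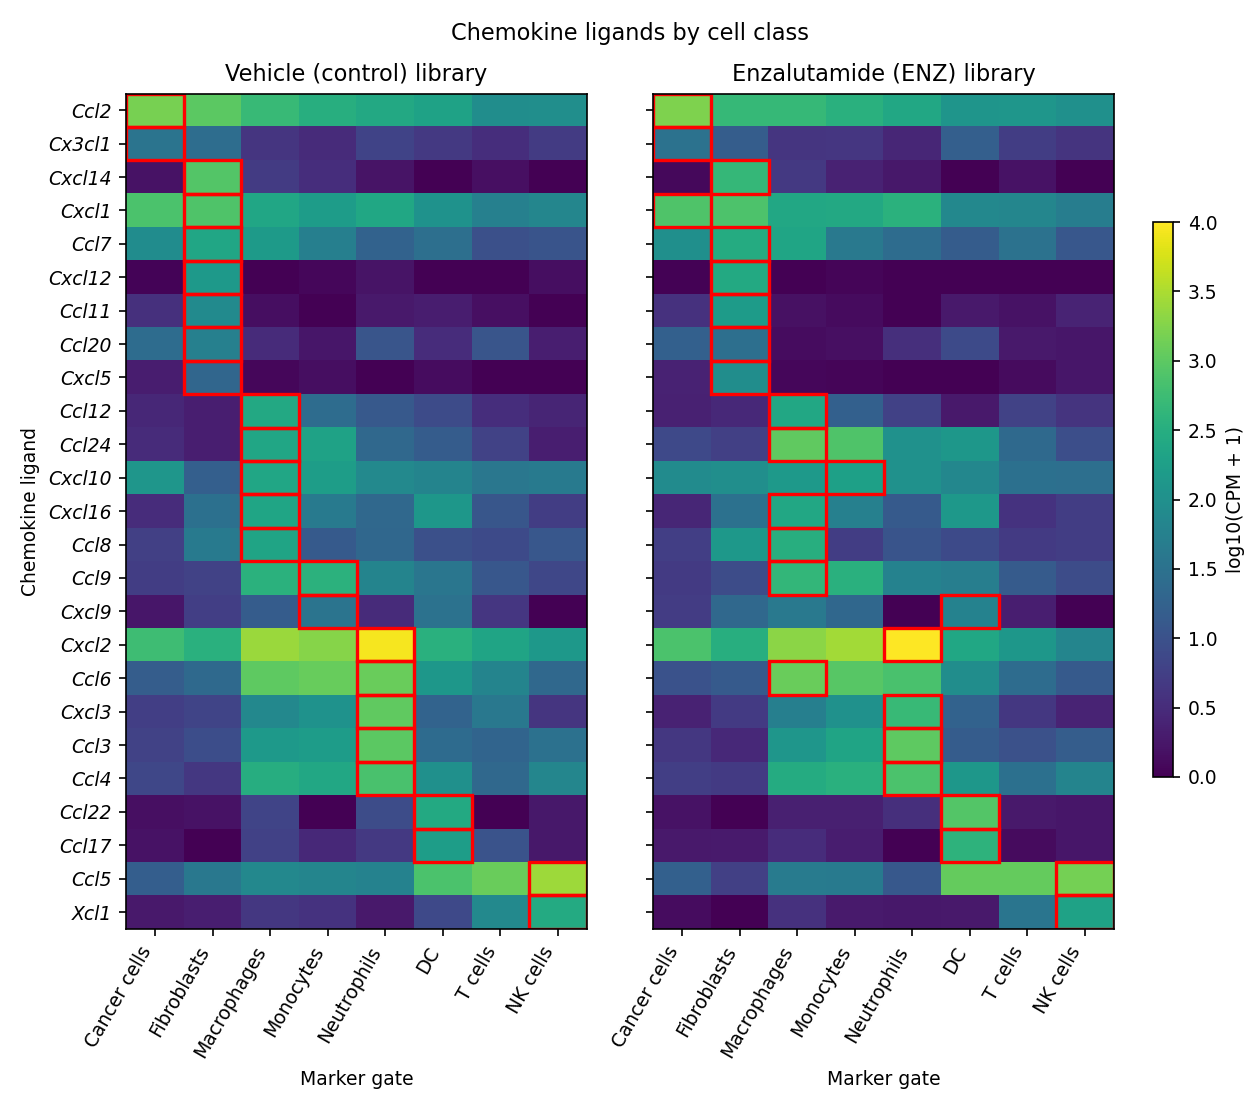
Levels of the 25 chemokine ligands in the 8 marker gates, as log10(CPM + 1) of UMIs summed per class, in the control library (left) and the ENZ library (right). Rows are ordered by the control library's highest class, and a red frame marks the highest class of each row in the library of that panel. The frames run down the diagonal from cancer cells (Ccl2) to NK cells (Ccl5, Xcl1), and 20 of 25 lie in the same class in both panels.

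Among the receptors, 9 of 10 had the same highest class in both libraries. Neutrophils carried Cxcr2, the receptor of Cxcl1, Cxcl2, Cxcl3 and Cxcl5, at 484 CPM (461 to 508) in control and 527 CPM (486 to 570) in ENZ, 30.1-fold and 44.4-fold above the next class. They were also highest for Ccr1 (724 and 688 CPM) and for Cxcr4 (129 and 148 CPM, with monocytes next at 71.2 and 76.7 CPM). Cx3cr1, usually named for monocytes and resident macrophages, was at 143 and 122 CPM in neutrophils and at 108 and 128 CPM in macrophages, and the ENZ order of those 2 was within counting error (1.05-fold, 0.875 to 1.26). Cancer cells stood at 28.5 and 18.1 CPM of Cx3cr1 and, through their depth, held 43.2% and 48.8% of its UMIs.

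Ccr2, the receptor of Ccl2, Ccl7 and Ccl12, was at 182 and 192 CPM in monocytes and at 177 and 190 CPM in NK cells, which did not differ beyond counting error in either library (1.03-fold, 0.919 to 1.16, and 1.01-fold, 0.882 to 1.16). Macrophages followed at 124 and 160 CPM. Cxcr6, the receptor of Cxcl16, was at 44.0 and 49.3 CPM in T cells and at most 4.75 CPM elsewhere. Ccr8 was also a T cell gene, at 11.2 and 16.8 CPM, and its T cell UMIs numbered 24 and 58. In regulatory T cells it was at 44.6 CPM in ENZ, while the control gate held 39 cells, under the minimum of 50. Cxcr3, the receptor of Cxcl9 and Cxcl10, had 15 and 42 UMIs in T cells (7.03 and 12.2 CPM) and did not stand above DC beyond counting error (1.21-fold, 0.557 to 2.61, and 1.79-fold, 0.832 to 4.42).

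Xcr1, which marks the DC that cross-present antigen, was at 56.3 and 84.8 CPM in DC, and 96.8% and 99.0% of its DC UMIs were in the cDC1 gate. Ccr7, which guides mature DC and naive T cells to lymph nodes, was at 110 and 326 CPM in DC and at 25.8 and 44.9 CPM in T cells, and 87.8% and 95.1% of its DC UMIs were in the mature DC gate. The UMIs of Ccl17, Ccl22 and Ccr7 in DC thus lay largely in 1 gate of 79 and 50 cells.

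**Figure D2:**
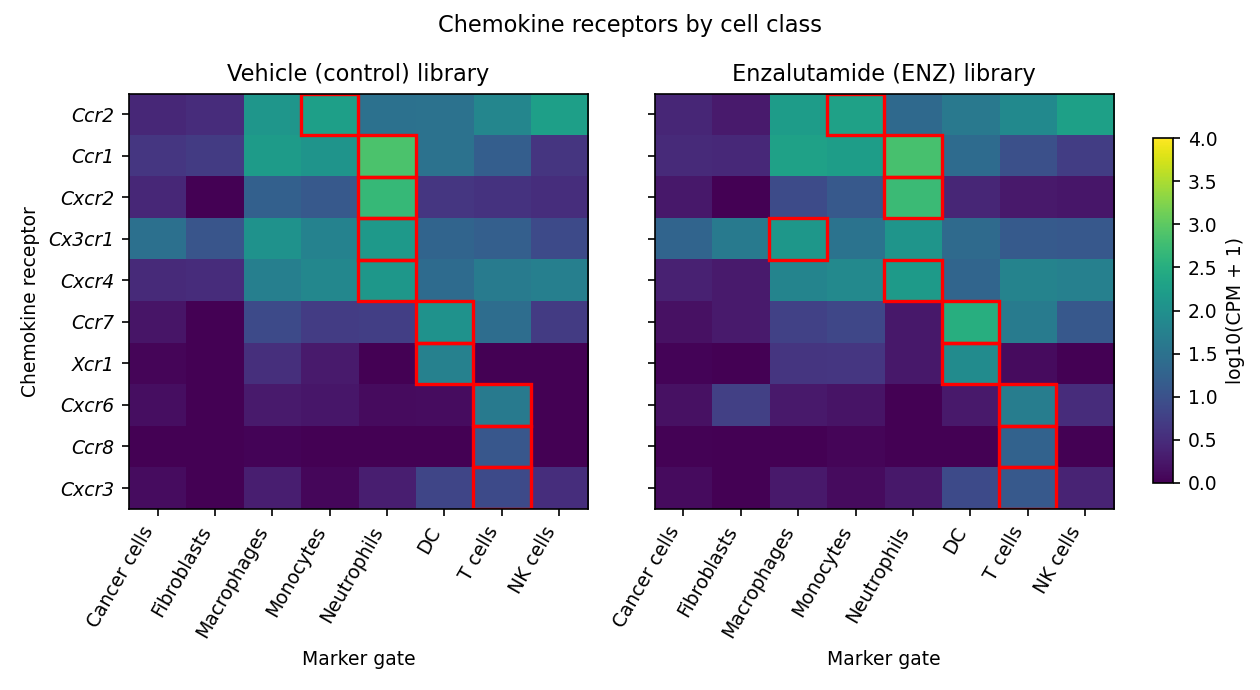
Levels of the 10 chemokine receptors in the 8 marker gates, as log10(CPM + 1) of UMIs summed per class, for the control library (left) and the ENZ library (right), with a red frame on the highest class of each row. Neutrophils have Cxcr2, Ccr1 and Cxcr4, T cells Cxcr6, Cxcr3 and Ccr8, DC Ccr7 and Xcr1, and Cx3cr1 is the 1 receptor whose frame moves.

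When each ligand was set beside the receptor it is known to bind, neutrophils were the highest class at both ends for Cxcl2 and Cxcl3 with Cxcr2 and for Ccl3 with Ccr1, in both libraries. For Ccl6 with Ccr1 this held in the control library alone. For the others of the 25 ligands whose receptor was measured here, the highest class of the ligand differed from that of the receptor. Outside the 25, Ccl1 and its receptor Ccr8 were both highest in T cells in both libraries. In control, Ccl1 in T cells was within counting error of NK cells (1.02-fold, 0.671 to 1.54). Cxcl9 with Cxcr3 was unclear, because DC were highest or within counting error of the highest class for both genes in both libraries. Ccl2 was highest in cancer cells and Ccr2 in monocytes and NK cells. Cxcl12 was highest in fibroblasts and Cxcr4 in neutrophils, Cxcl16 in macrophages and Cxcr6 in T cells, and Xcl1 in NK cells and Xcr1 in DC. Ccr4, the receptor of Ccl17 and Ccl22, was highest in T cells at 16.4 and 22.0 CPM. Ccr3, the receptor of Ccl11 and Ccl24, was at most 4.22 CPM in any class of either library. Eosinophils, its usual bearers, were not gated.

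The levels were then compared between the libraries. A gene was compared in a class when it had at least 50 UMIs over both libraries and a mean of at least 10 CPM. This held for 139 pairs of gene and class and for 34 of the 35 genes, Cxcr3 being the exception, so the counts below are for those that passed and not for all 35. A pair was counted as higher or lower in ENZ at a ratio of at least 2-fold. There were 14 pairs higher and 13 lower, beside 1.34% higher and 1.63% lower of all 59734 pairs of gene and class compared. The 27 pairs were over 18 genes, and the other 16 genes compared were within 2-fold in every class in which they passed. With at least 20 UMIs and no filter on CPM, 198 pairs were compared, of which 21 were past 2-fold higher and 31 lower, beside 3.02% and 3.95% of all 93723 pairs at that filter. In the class where they were highest in control, 6 of 34 were past 2-fold, namely Ccl24, Ccl17, Ccl22, Ccr7, Cxcl3 and Cxcl5, beside 3.68% of all 10918 genes compared in their own highest class.

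In cancer cells 0 of 10 were past 2-fold higher and 0 of 10 lower, where 0.0702% and 0.269% of all 8553 genes compared were. Their log2 ratios ran from -0.65 (Cx3cr1) to 0.34 (Cxcl2), with a median of 0.01 beside 0.05 over all genes. Ccl2 differed by 1.12-fold (1.11 to 1.13) and Cxcl1 by 1.08-fold (1.06 to 1.09).

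Among the 27 pairs, Ccl24 in macrophages had the most UMIs behind it, 2960 and 6002, followed by Ccl24 in monocytes. Ccl24, an eosinophil attractant also known as a product of alternatively activated macrophages, stood in macrophages at 236 CPM (228 to 245) in control and 1044 CPM (1018 to 1071) in ENZ, a 4.43-fold ratio (4.23 to 4.63). In monocytes it stood at 203 CPM (191 to 216) and 801 CPM (779 to 823), a 3.94-fold ratio (3.69 to 4.22). Both ENZ levels lay far above the control levels, and the cell with most UMIs held 2.15% and 2.79% of them. After thinning, Ccl24 was seen in 11.1% of control and 34.7% of ENZ macrophages (26.4% and 55.9% before thinning) and in 6.45% and 22.7% of monocytes, against 0% and 0.901% of NK cells, the 0 in control allowing up to 0.654%.

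The gates were not made of the same clusters in the 2 libraries. Of the macrophages, 675 in control and 114 in ENZ lay in a cluster led by Lyz2, Cd74 and Il1b, and 434 and 401 in one led by Apoe, Lyz2 and C1qa. Within the first, Ccl24 was at 287 CPM in control and 1688 CPM in ENZ (5.89-fold, 5.48 to 6.34), and within the second at 231 and 668 CPM (2.89-fold, 2.68 to 3.12). Of the monocytes, 109 and 643 lay in a cluster led by Chil3, Cd14 and Il1b, where Ccl24 was at 323 and 919 CPM, and 540 and 416 in one led by Lyz2, Plac8 and Chil3, where it was at 106 and 449 CPM. Another 256 of 1054 control and 56 of 1265 ENZ monocytes lay in the cluster led by Lyz2, Cd74 and Il1b, and no level is given for them. A further 24 of 1529 control and 131 of 845 ENZ macrophages lay in the cluster led by Chil3. The monocyte markers in the macrophage gate, 7 of 7 detected in each, summed to 889 CPM in control (led by Plac8) and 1356 CPM in ENZ (led by F13a1), higher together with Ccl24. Within each of the 4 clusters whose levels are given, Ccl24 was higher in ENZ.

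Of the 21 genes compared in macrophages, 2 were past 2-fold higher (Ccl24 and Cxcl9) and 1 lower (Cxcr2), beside 0.805% higher and 0.681% lower over all 8075 genes, and the median log2 ratio was 0.13 beside 0.14. Cxcl9 was at 13.6 and 39.9 CPM (2.92-fold, 2.39 to 3.58), but within the Lyz2 and Cd74 cluster it had 52 control UMIs and 1 ENZ UMI, and within the Apoe cluster the ratio was 1.70-fold (1.29 to 2.24), so its direction differed between the clusters. For the mean of the CPM of each cell its log2 ratio was 0.65 in place of 1.55. Cxcr2 was at 16.1 and 7.31 CPM, a log2 ratio of -1.14 that was under 2-fold with classes from Leiden clusters (-0.93) and for the mean of the CPM of each cell (-0.80), while the neutrophil markers in the macrophage gate summed to 1111 and 684 CPM (8 of 8 detected in each, led by S100a9 in control and Il1r2 in ENZ), and their part was not tested. In monocytes 1 of 20 was higher, Ccl24, and 0 lower, beside 1.31% and 0.656% of 7314 genes. The neutrophil markers in the monocyte gate, 8 of 8 detected, summed to 705 CPM in control (led by Il1r2) and 1312 CPM in ENZ (led by S100a8), higher together with Ccl24, and the macrophage markers, 9 of 9 and led by Apoe, to 1316 and 1279 CPM. Their part was not tested.

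**Figure D3:**
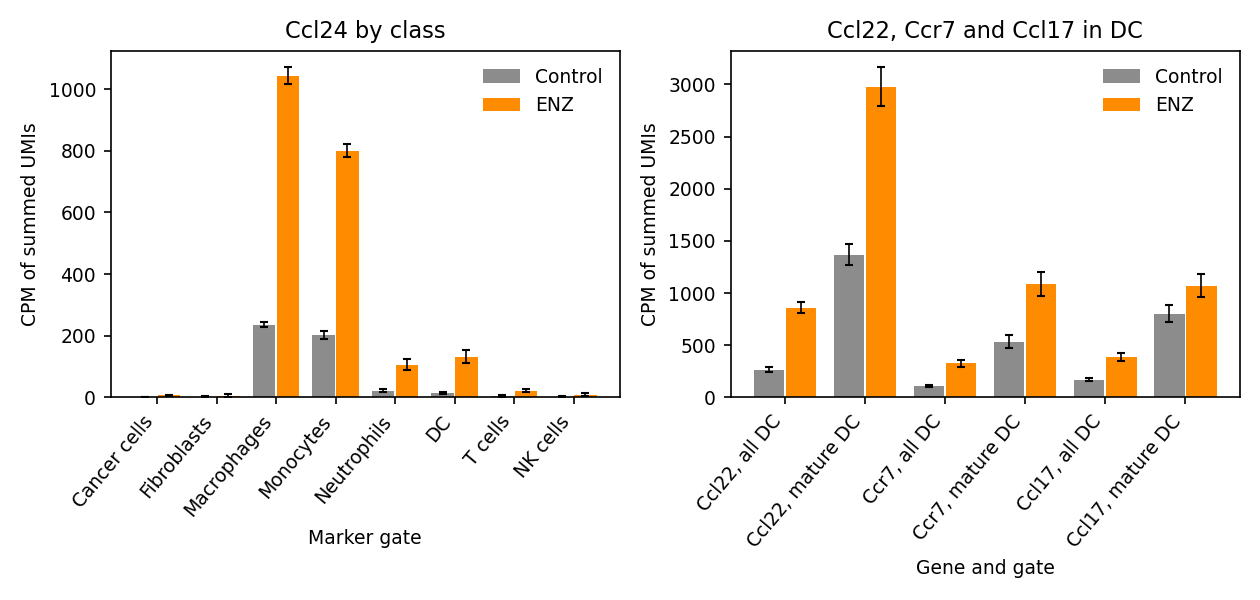
CPM of summed UMIs in the control library (grey) and the ENZ library (orange), for Ccl24 in the 8 classes (left) and for Ccl22, Ccr7 and Ccl17 in all DC and in the mature DC gate (right); error bars are exact 95% Poisson intervals for counting error only. The Ccl24 bars of ENZ macrophages (1044 CPM) and monocytes (801 CPM) stand above all others on the left, and in mature DC the libraries are nearer to each other for Ccl17 than for Ccl22 and Ccr7.

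In neutrophils 1 of 19 was higher, Ccl24, and 3 were lower, Ccl5, Ccl8 and Cxcl3, beside 1.32% and 3.35% of 6751 genes. Cxcl3 was at 1041 CPM (1007 to 1076) in control and 491 CPM (452 to 532) in ENZ, 2.12-fold lower (1.94 to 2.32). Among neutrophils with at least 2000 UMIs its log2 ratio was -0.81 in place of -1.09, under 2-fold. It was seen in 31.5% and 23.6% of neutrophils, against 1.09% and 0.901% of NK cells (after thinning, in 331 of 1322 and 89 of 500 neutrophils). Cxcl2, which starts 118 kb away and has the same 11 bases in the sequences above, was 1.19-fold higher (1.17 to 1.22) in the same cells. Ccl24 was at 21.3 and 105 CPM, of which free RNA at its upper share would bring 5.76 and 13.3 CPM, and 23 of 500 ENZ neutrophils held its 125 UMIs. A single ENZ cell held 43.2% of them, and a single control cell held 33 of 71. Without the top cell of each library the log2 ratio of Ccl24 was 2.39 in place of 2.30. Ccl5 was at 58.7 and 11.7 CPM beside 25.2 and 11.0 CPM that free RNA would bring, and Ccl8 at 20.7 and 10.1 CPM beside 14.2 and 7.08 CPM. The macrophage markers in the neutrophil gate, 9 of 9 detected with Apoe as the most abundant, summed to 691 and 359 CPM, and the monocyte markers, 7 of 7 and led by Hp, to 837 and 1008 CPM. Of the classes that carry Ccl5, the NK markers there summed to 21.9 CPM in control and 14.3 CPM in ENZ. The mature DC markers summed to 54.8 and 31.9 CPM, and the T cell markers to 14.7 and 17.6 CPM. Their part in these ratios was not tested.

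In DC 4 of 22 were higher, Ccl24, Ccl22, Ccr7 and Ccl17, and 1 lower, Ccl7, beside 2.57% and 1.96% of 7048 genes. The median log2 ratio of the 22 was 0.23 beside 0.07. Ccl22 was 3.22-fold higher (2.92 to 3.54), Ccr7 2.96-fold (2.54 to 3.45) and Ccl17 2.30-fold (2.02 to 2.63). Ccl17 was under 2-fold without its top cell (log2 ratio 0.99 in place of 1.20). It was also under 2-fold with classes from Leiden clusters (0.97) and for the mean of the CPM of each cell (0.76). The mature DC, which carried these genes, made up 21.4% (17.3 to 26.0) of control DC and 29.2% (22.5 to 36.7) of ENZ DC. Their markers in the DC gate, 7 of 7 detected and led by Fscn1 (159 and 364 CPM), summed to 376 CPM in control and 764 CPM in ENZ, higher together with these genes, and their part was not tested. Within mature DC alone, Ccl22 was at 1366 CPM (1265 to 1472) and 2974 CPM (2793 to 3164), 2.18-fold higher (1.97 to 2.40), and Ccr7 at 533 and 1082 CPM, 2.03-fold higher (1.73 to 2.39). Ccl17 was at 803 and 1068 CPM there, 1.33-fold higher (1.15 to 1.54), which is under 2-fold. The ENZ UMIs of Ccl22, Ccr7 and Ccl17 in DC lay in 46, 47 and 45 cells, and 12.6%, 7.81% and 21.7% of them in 1 cell each.

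Ccl17 and Ccl22, the ligands of 1 receptor, start 64.8 kb apart on chromosome 8 (GRCm38.p6, between annotated starts). Ccl24 in DC was at 13.4 and 132 CPM, and 108 of its 155 ENZ UMIs were in the 28 cells of the cDC2 gate, under the minimum of 50 cells. A single cell held 42.6% of the 155. The macrophage markers in the DC gate, 9 of 9 detected and led by Apoe, summed to 430 CPM in control and 322 CPM in ENZ, and the monocyte markers, 7 of 7 and led by Plac8, to 689 and 619 CPM. Their part was not tested. Ccl7 in DC was at 28.0 and 13.6 CPM, with 47 of the 77 control UMIs in 1 cell, and without the top cell of each library its log2 ratio was 0.12 in place of -1.04.

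In fibroblasts 4 of 16 were higher, Cxcl10, Cxcl5, Cx3cr1 and Ccl8, and 2 lower, Ccl5 and Ccl2, beside 2.41% and 3.88% of 7044 genes, with a median log2 ratio of 0.01 beside -0.04. Cxcl10 was at 15.3 and 92.1 CPM (6.03-fold, 3.90 to 9.61), with 42.3% of its 97 ENZ UMIs in 1 cell and 82.5% in 3 cells, and with no gate margin its log2 ratio was 0.99 in place of 2.59. Cxcl5 was at 19.8 and 90.2 CPM (4.55-fold, 3.06 to 6.92), and 11 of 57 ENZ fibroblasts held the 95 Cxcl5 UMIs. Of these, 42.1% were in 1 cell and 87.4% in 3 cells, and 1 control cell held 21 of 35 UMIs. Without the top cell of each library the log2 ratio of Cxcl5 was 2.72 in place of 2.19. Ccl2 was at 975 and 476 CPM, 2.05-fold lower (1.85 to 2.27), with a log2 ratio of -0.91 without the top cell and -0.32 for the mean of the CPM of each cell. The cancer markers in the fibroblast gate were lower as well, at 532 CPM in control (8 of 8 detected, Krt8 at 123 and Krt18 at 120 CPM) and 290 CPM in ENZ (7 of 8, Epcam at 0, Krt8 at 19.0 and Krt18 at 8.54 CPM), with Meis2 the most abundant in both, and their part was not tested. Ccl8 was at 42.4 and 133 CPM, with 82 of 140 ENZ UMIs in 1 cell, and without the top cell its log2 ratio was 0.63 in place of 1.65. Ccl5 was at 39.6 and 4.75 CPM, with 84.3% of its 70 control UMIs in 3 cells, and its ENZ level was near the 3.49 CPM that free RNA would bring. The NK markers in the fibroblast gate were lower as well, at 28.9 CPM (7 of 8 detected, Prf1 at 0, led by Gzma) and 3.80 CPM (3 of 8, with Ncr1, Klre1, Gzma, Prf1 and Eomes at 0), as were the T cell markers, at 24.9 CPM (6 of 8, Cd3e and Cd5 at 0) and 8.54 CPM (2 of 8, Cd3e among those at 0), led by Trac. Cx3cr1 was at 10.2 and 41.8 CPM on 18 and 44 UMIs, and its log2 ratio was 0.74 in place of 2.04 with classes from Leiden clusters. Of the myeloid markers in the fibroblast gate, the monocyte list was the most abundant and was higher in ENZ, at 800 CPM (7 of 7 detected) and 1084 CPM (6 of 7, Ms4a4c at 0), led by Plac8. The macrophage markers were at 180 CPM (8 of 9, Adgre1 at 0) and 126 CPM (8 of 9, Ms4a7 at 0), led by Apoe, and the neutrophil markers at 168 CPM (8 of 8, led by S100a9) and 56.9 CPM (7 of 8, Retnlg at 0, led by Il1r2). Their part in these ratios was not tested. Cxcl12 (1.85-fold higher) and Ccl11 (1.95-fold higher) were under 2-fold, as was Cxcl14 (1.81-fold lower).

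In T cells 2 of 20 were higher, Ccl24 and Ccl7, and 4 lower, Cxcl3, Ccl6, Xcl1 and Ccl3, beside 1.41% and 1.52% of 8023 genes, with a median log2 ratio of 0.19 beside 0.07. Of these, Xcl1 is mainly known as a product of T and NK cells, and it was at 76.4 and 35.1 CPM, 2.18-fold lower (1.71 to 2.78), with 35.6% of its control UMIs in 1 cell. Without the top cell its log2 ratio was -0.79 in place of -1.12, and it was also under 2-fold with no gate margin (-0.95), with classes from Leiden clusters (-0.65) and for the mean of the CPM of each cell (-0.71). The NK markers in the T cell gate, 8 of 8 detected and led by Gzma (200 and 155 CPM), summed to 309 CPM in control and 220 CPM in ENZ, and their part was not tested. In CD8 T cells it was at 158 and 60.6 CPM. For Cxcl3, Ccl7 and Ccl3, 1 cell held most of the UMIs of the higher library. For Cxcl3, 72 of 83 control UMIs were in 1 cell, for Ccl7 63 of 108 ENZ UMIs, and for Ccl3 24 of 40 control UMIs. Without the top cell their log2 ratios were -0.98, 0.71 and -0.23, all under 2-fold, and with classes from Leiden clusters they were -0.88, 0.17 and 1.53, the last in the opposite direction. Ccl24 was at 5.15 and 22.3 CPM beside 2.06 and 8.53 CPM that free RNA would bring, and Ccl6 was at 62.3 and 24.9 CPM beside 11.3 and 12.5 CPM, with 54 of its 133 control UMIs in 1 cell. Without the top cell the log2 ratio was 2.60 for Ccl24 and -1.09 for Ccl6, still past 2-fold, while with classes from Leiden clusters it was -0.34 and -0.39. The macrophage markers in the T cell gate summed to 208 CPM in control (9 of 9 detected) and 91.9 CPM in ENZ (8 of 9, Ms4a7 at 0), with Apoe the most abundant, and the monocyte markers (7 of 7, led by Plac8) to 492 and 459 CPM. Their part was not tested.

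In NK cells 0 of 11 were higher and 2 lower, Ccl3 and Cxcl2, beside 1.17% and 1.29% of 6926 genes. The median log2 ratio of the 11 was -0.46 beside 0.05 over all genes. Cxcl2 was at 135 and 64.0 CPM, where free RNA would bring 45.1 and 34.5 CPM and 1 control cell held 109 of 338 UMIs, and Ccl3 was at 29.6 and 14.0 CPM on 74 and 19 UMIs. Both were under 2-fold without the top cell (log2 ratios of -0.55 and -0.97), with classes from Leiden clusters (-0.98 and -0.82) and for the mean of the CPM of each cell (-0.58 and -0.88), and Cxcl2 also after a doublet filter (-0.39). The neutrophil markers in the NK gate, led by S100a9, summed to 119 CPM (8 of 8 detected) and 52.3 CPM (7 of 8, G0s2 at 0). The macrophage markers there, 9 of 9 detected and led by Apoe (91.5 and 28.7 CPM), summed to 151 and 76.5 CPM. Their part was not tested. The genes that NK cells carry themselves were under 2-fold, with Ccl5 1.77-fold lower (1.68 to 1.86) and Xcl1 1.37-fold lower (1.19 to 1.58).

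**Figure D4:**
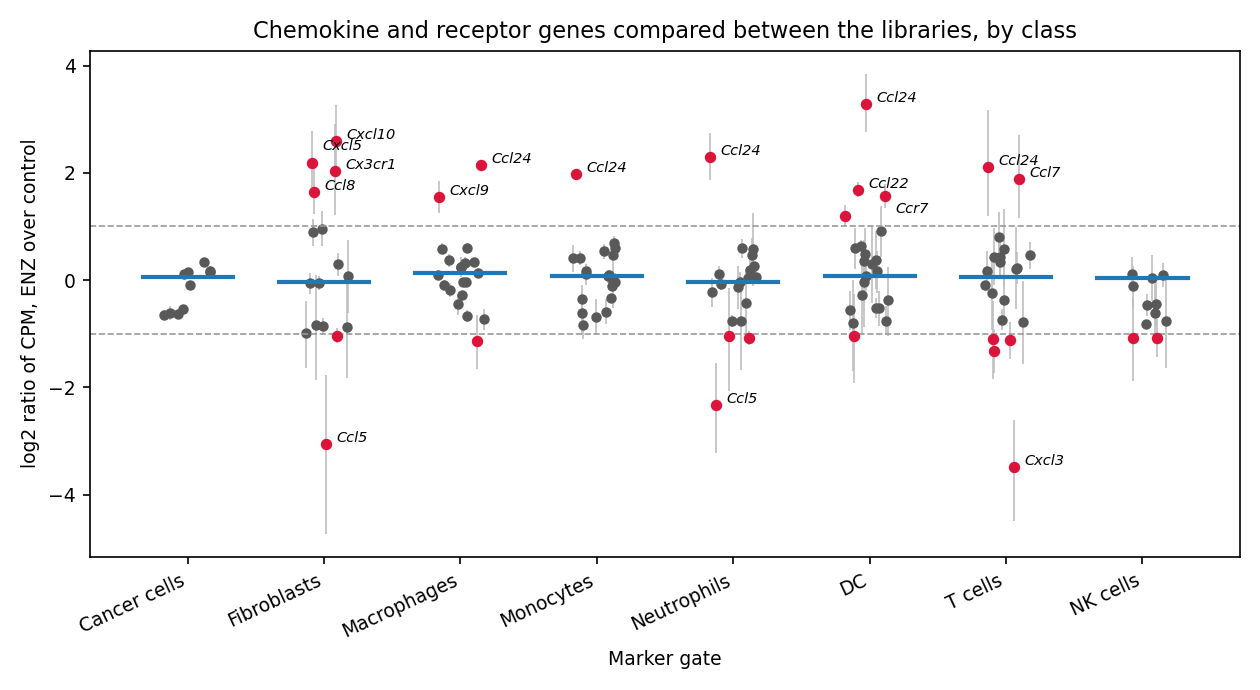
Log2 ratio of CPM, ENZ over control, of each gene compared in each class; bars are exact 95% conditional binomial intervals for counting error only, red points are past 2-fold (dashed lines) and blue lines mark the median of all genes compared in the class. Cancer cells have no red point, and Ccl24 is red in macrophages, monocytes, neutrophils, DC and T cells, with names given from a log2 ratio of 1.5 in size.

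Several of the 27 pairs were carried by few cells. In 5 of them (Cxcl3, Ccl7 and Ccl3 in T cells, Ccl7 in DC and Ccl8 in fibroblasts) 1 cell held over 50% of the UMIs in the library with the higher level. Without the UMIs of the top cell of each library, 17 pairs were past 2-fold, 10 were under it, and 1 of those 10 (Ccl7 in DC) changed direction. The interval of a ratio treats UMIs as independent and is too narrow for such pairs.

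**Figure D5:**
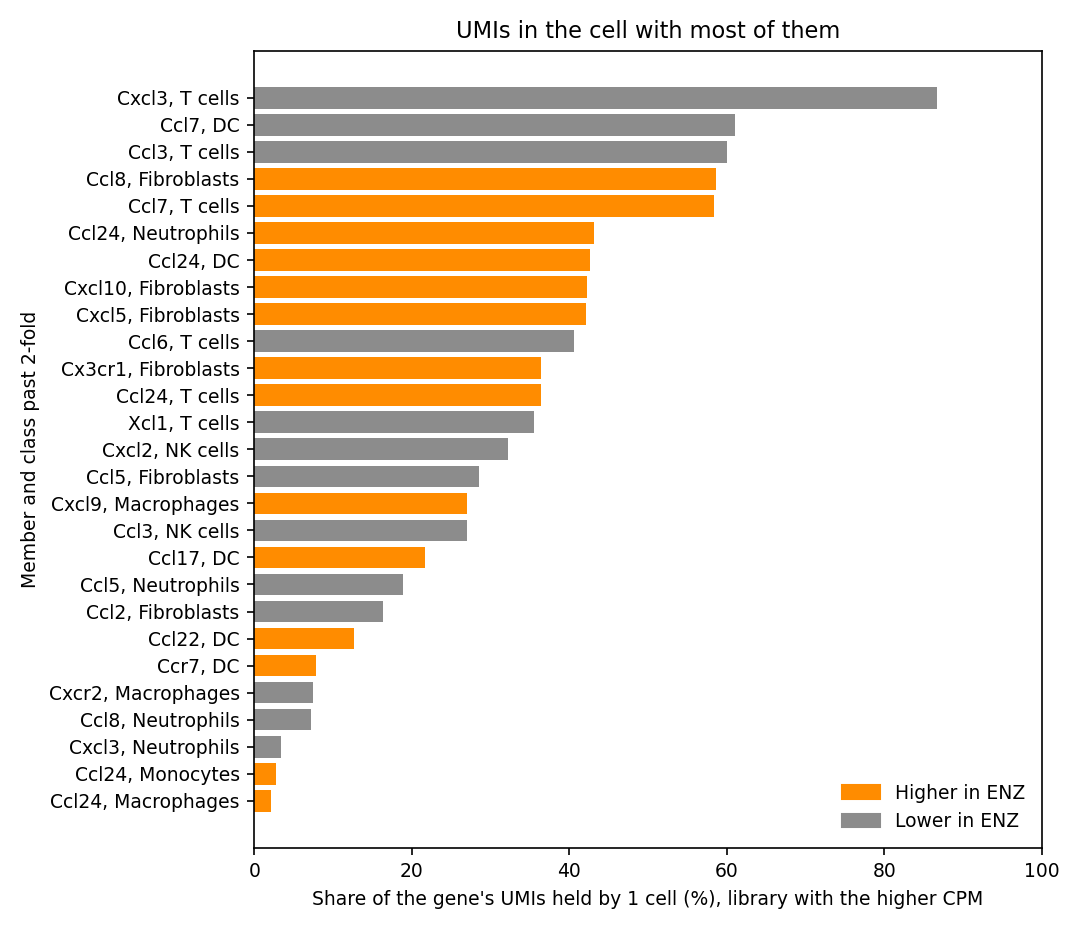
Share of a gene's UMIs in the class that was held by 1 cell, in the library with the higher CPM, for the 27 pairs of gene and class past 2-fold; orange bars are higher in ENZ and grey bars lower. The bars run from Cxcl3 in T cells at 86.7% to Ccl24 in macrophages at 2.15%.

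Of 46 other genes of the pathway, 45 were in the count tables, covering further chemokines and receptors, atypical receptors, signalling genes and inducers. They gave 168 pairs of gene and class, of which 2 were past 2-fold higher and 8 lower, beside 1.34% and 1.63% of all pairs of gene and class. None of the 31 compared in their highest class was past 2-fold there, beside 3.68% of all 10918 genes compared in their highest control class. The 2 higher were Tnfaip3, an inhibitor of NF-kB, in fibroblasts (101 and 202 CPM) and Ccrl2, an atypical receptor, in DC (19.3 and 42.4 CPM). Il1b, an inducer of neutrophil-attracting chemokines, was highest in neutrophils at 7767 and 7121 CPM. It was past 2-fold lower in cancer cells (48.4 and 17.8 CPM), fibroblasts (76.9 and 19.0 CPM), T cells (119 and 40.6 CPM) and NK cells (66.3 and 17.7 CPM), while in neutrophils it was within 2-fold. The neutrophil markers summed to 139 and 89.1 CPM in the cancer gate, 168 and 56.9 CPM in fibroblasts and 119 and 52.3 CPM in NK cells, lower in ENZ as Il1b was, but to 166 and 182 CPM in T cells. The macrophage markers were lower in all 4 gates, at 131 and 86.3 CPM in cancer cells, 180 and 126 CPM in fibroblasts, 208 and 91.9 CPM in T cells and 151 and 76.5 CPM in NK cells. Their part was not tested. Pf4, a macrophage and platelet chemokine, was highest in macrophages at 586 and 461 CPM. It was past 2-fold lower in DC (36.7 and 5.94 CPM), neutrophils (38.7 and 16.8 CPM) and T cells (20.1 and 9.27 CPM). The macrophage markers there summed to 430 and 322 CPM, 691 and 359 CPM, and 208 and 91.9 CPM, in the same order. Their part in the Pf4 ratios was not tested. Ccl1, the ligand of Ccr8, was highest in T cells at 21.5 and 41.4 CPM (46 and 143 UMIs), higher in ENZ but under 2-fold. In NK cells Ccl1 was past 2-fold lower (21.2 and 10.3 CPM). The T cell markers in the NK gate, led by Trbc2 (152 and 72.9 CPM), summed to 283 CPM in control and 176 CPM in ENZ. Their part in the Ccl1 ratio was not tested. Ackr3, an atypical receptor that takes up Cxcl12, was highest in fibroblasts at 292 and 193 CPM.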

How the data were processed

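UMI counts per gene and barcode, as the authors deposited them in 1 matrix per library, were used. The labels name a 3′ v2 chemistry. The submitters' processing notes name Cell Ranger 2.1.1 and mm10, while the matrix header names Cell Ranger 7.2.0. The annotation and the use of intronic reads are not given in the sources used here.

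Barcodes with at least 1000 UMIs and at most 20% mitochondrial UMIs were kept. The 39 barcodes shared by both libraries were kept in each. Rows with the same symbol were summed. A cell took the class whose marker list scored highest, if at least 3 markers of it were detected and the score led by at least 0.05. Cells that also scored 0.2 or more for another lineage were left ungated, as were fibroblasts without Col1a2 and Dcn or Lum. The lists of markers were written first and the scoring rule was settled after values had been seen. For 402 control and 319 ENZ cells the lead was under 0.07. Doublets were not removed beyond this margin. Scrublet's own threshold marked 0 control cells, and the ENZ threshold of 0.250, used in both libraries for an alternative, marked 295 (2.41%) and 292 (2.84%).

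Counts were summed per class and library and divided by all UMIs of the class. CPM have exact Poisson intervals, ratios exact conditional binomial intervals and shares Clopper-Pearson intervals, all at 95%. A count of 0 allows up to 3 counts. The free RNA level of a gene is its CPM in barcodes with at most 100 UMIs times an upper share of free RNA, taken from markers of other classes. A gene was compared in a class with at least 50 cells per library, 50 UMIs over both libraries and a mean of 10 CPM. With 1 library per group no p-value was computed. For shares, each cell was thinned to 1000 UMIs. Leiden clusters (resolution 1.5, 15 neighbours, 30 components, 2000 variable genes) served as a check. The scripts were tested on simulated data.

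Each of the 35 genes was named with its highest class and wherever it was past 2-fold, and a gene of the pathway list if past 2-fold in its highest class or a receptor of a named ligand. The other pathway genes named, and the promoters shown, were chosen after values had been seen. The 35 genes, the marker lists and the other lists were chosen with earlier results of these data known. Promoters were from RefSeq. Some genes of the marker and pathway lists are not reported here. The alternatives were other filters, gates, scalings, a doublet filter and Leiden classes. Python 3.11.15, numpy 2.4.6, scipy 1.17.1, pandas 2.3.3, scanpy 1.11.5, leidenalg 0.10.2 and matplotlib 3.10.9 were used.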

Additional observations from a re-analysis of the deposited data

Results flagged for a closer look

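Ccl24 was also higher in ENZ among barcodes outside the 8 gated classes. In the barcodes that passed the filters but entered no class it was at 36.4 CPM in control and 169 CPM in ENZ, a ratio of 4.64 (4.35 to 4.96). In barcodes with at most 100 UMIs, which hold mainly free RNA, it was at 53.5 and 156 CPM, a ratio of 2.91 (2.48 to 3.43). Both were singled out because the ENZ level lay above the control level in data outside the gates, with 1 library each.

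For 2 ligands, classes of cells past 2-fold went opposite ways. The log2 ratio of Ccl7 was 1.89 in T cells and -1.04 in DC, and 1 cell held 58.3% and 61.0% of the UMIs in the library with the higher level. Without that cell in each library the log2 ratios of Ccl7 were 0.71 and 0.12, in the same direction and both under 2-fold. The log2 ratio of Ccl8 was 1.65 in fibroblasts, where 1 ENZ cell held 58.6% of the UMIs and without it the ratio was 0.63, and -1.04 in neutrophils, where the levels were 1.46-fold or less above what free RNA would bring. These differences between classes were not tested.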

How the results depend on the processing

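No paired analysis was possible because there was 1 library for each treatment, and the mouse, the library and the treatment cannot be told apart. Over the other filters, gates, scalings and classes, 20 to 21 ligands and 8 to 10 receptors had the same highest class in both libraries. With at least 20 UMIs and no filter on CPM, 198 pairs were compared in place of 139, of which 31 were past 2-fold lower in place of 13 and 21 higher in place of 14, beside 3.95% and 3.02% of all pairs. Of 270 values of the 27 pairs under these settings, 267 had the same direction and 238 were past 2-fold. The log2 ratio ran from 2.06 to 2.29 for Ccl24 in macrophages, from 1.86 to 2.54 for Ccl24 in monocytes, from 1.22 to 1.70 for Ccl22 in DC and from -1.28 to -0.81 for Cxcl3 in neutrophils. The direction turned for Ccl7 in DC with no gate margin (log2 ratio 0.082) and, with classes from Leiden clusters, for Ccl3 (1.53) and Ccl24 (-0.34) in T cells. The cause was not tested. Among alternatives chosen after seeing the data, it turned for Cxcl9 in macrophages within the cluster led by Lyz2 and Cd74 (-2.81), for Ccl22 in DC within the cDC1 gate (-3.20, on 48 and 2 UMIs) and for Ccl7 in DC without the top cell (0.12). Under the other filters, gates, scalings and classes, and without the top cell, but leaving aside values within single clusters or DC gates, 10 pairs were past 2-fold throughout, namely Ccl24 in macrophages, monocytes, neutrophils and DC, Ccl22 and Ccr7 in DC, Ccl5 and Cxcl5 in fibroblasts and Ccl5 and Ccl8 in neutrophils. Cxcr3 and Ccr8 rested on few counts, with under 60 UMIs per library in T cells.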
